A study of Mus musculus with 9 samples.

Results

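NAD synthesis and consumption were examined through 10 genes of the 24341 listed for each sample. These were *Nampt*, *Nmnat1*, *Nmnat2*, *Nmnat3*, *Nadk*, *Nnt*, *Nt5e*, *Nnmt*, *Cd38* and *Bst1*. They were chosen by gene name for their roles, with earlier results of these data known, and each was found once in every sample. The data are RNA-Seq read counts from mouse embryonic fibroblasts (MEFs), 3 samples of wild-type (WT) cells, 3 of *Atm-/-* cells and 3 of *Sirt6-/-* cells. The study asked how loss of the DNA damage kinase Atm, and of the NAD-dependent deacetylase Sirt6, changes metabolic genes. All samples are labelled C57BL/6, were grown in DMEM with 10% FBS, and carry no other treatment label.

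The WT, *Atm-/-* and *Sirt6-/-* groups are named here by their genotype labels. A further label, shared by all 9 samples, gives the source mice as wildtype, Sirt6-/-, P53-/- or Atm-/-P53-/-, and does not tie p53 status to a sample. The paper's methods describe primary MEFs, immortalized MEFs that lack both *Atm* and *p53*, and immortalized *Sirt6-/-* MEFs. Each immortalized line came as a gift from a different outside laboratory, and the methods do not say which cells were sequenced. The paper's results report RNA-Seq of *Atm-/-* MEFs, and name a p53-null background for the metabolite profiles. If the immortalized lines were sequenced, genotype and origin of the line cannot be told apart in either knockout or between the knockouts. Nothing states that samples of a genotype came from separate cultures or embryos, so p-values measure only the spread between these samples, which may be technical. *Sirt6* had 4, 5 and 7 reads in *Sirt6-/-* and 402 to 487 in WT. *Atm* had 3443 to 3768 reads in *Atm-/-* and 1536 to 1627 in WT, and counts per gene do not show which exons the reads came from, so they do not check this label. *Trp53*, the gene of p53, had 806 to 946 reads in *Atm-/-*, 6563 to 7108 in WT and 9081 to 9218 in *Sirt6-/-*. Its part in the *Atm-/-* values below was not tested, and since it was low in every *Atm-/-* sample low *Trp53* and the *Atm* genotype cannot be told apart here.

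Cells make NAD mainly by salvage of nicotinamide: Nampt joins nicotinamide to a ribose phosphate to give nicotinamide mononucleotide (NMN), and the Nmnat enzymes turn NMN into NAD. Nadk adds a phosphate to make NADP, and Nnt, in the inner mitochondrial membrane, passes hydride from NADH to NADP. NAD is spent by sirtuins such as Sirt6, by poly(ADP-ribose) polymerases (PARPs) at DNA breaks, and by the ectoenzymes Cd38 and Bst1, and the nicotinamide they release is either salvaged by Nampt or methylated and discarded by Nnmt. Nt5e, also called CD73, is an enzyme of the outer cell surface that dephosphorylates AMP and can convert NMN to nicotinamide riboside.

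Each sample held 32187040 to 33837949 counted reads, so that 3 reads correspond to 0.0887 to 0.0932 CPM (reads scaled to a common library total). Levels of 1 gene across samples are given as read counts and as CPM normalized with TMM factors, a scaling that sets the bulk of genes equal, and levels of different genes are compared as the authors' RPKM, which divide reads by the listed transcript length and the read total. Fibroblast markers were present in every group, with 10 of 10 in WT, 10 in *Atm-/-* and 9 in *Sirt6-/-* at a mean of at least 1 CPM. Their summed level was 18558 to 21835 CPM in WT, 6012 to 6158 in *Atm-/-* and 16048 to 16607 in *Sirt6-/-*, but the markers went both ways. Against WT, 3 of the 10 were higher and 7 lower in *Atm-/-*, and 5 higher and 5 lower in *Sirt6-/-*. *Thy1*, for example, had 24.4 ± 5.34 CPM in WT, 87.3 ± 4.24 in *Atm-/-* and 0.47 ± 0.504 in *Sirt6-/-*. Of 8 haematopoietic markers, 3 reached 1 CPM in WT, 2 in *Atm-/-* and 3 in *Sirt6-/-*, and the defining *Ptprc* had at most 6 reads in any sample. Epithelial markers, 5 of 5 at 1 CPM in each group, summed to 20.3 to 23.5 CPM in WT. The sum was 86.3 to 93.3 CPM in *Atm-/-* and 18.4 to 21.3 in *Sirt6-/-*. The higher sum in *Atm-/-* came mainly from *Krt19* and *Krt18*. *Cdh1* was also called higher in *Atm-/-*, with 4.13 ± 0.222 CPM against 2.3 ± 0.25 in WT, while *Epcam* and *Krt8* were not called against WT. In such bulk samples, fewer cells of a type and less RNA per cell cannot be told apart.

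Of the 10 genes, 9 had enough reads for a test in each comparison, and *Cd38* did not. In *Atm-/-* against WT, 5 of the 9 were higher and 2 lower at an adjusted p under 0.05 (edgeR's quasi-likelihood test, two-sided, Benjamini-Hochberg adjustment over all 13283 tested genes). Among all tested genes, 34.7% were higher and 33.6% lower in the same comparison. Higher genes made up 50.8% of these calls, and 64.9% when library totals replaced TMM factors. A change of at least 2-fold was called in 4 members, against 22.5% of all tested genes. In *Sirt6-/-* against WT, 5 members were again higher and 2 lower, where 39.2% of 13206 tested genes were higher and 37.4% lower, and 4 members changed at least 2-fold, against 29.3% of genes. In *Atm-/-* against *Sirt6-/-*, 4 members were higher and 2 lower, where 38.0% of 13460 tested genes were higher and 37.8% lower, and 3 members differed at least 2-fold, against 25.5% of genes. So many genes were called in each comparison that the members' counts of calls are read against these shares and not as a result on their own. The median size of the log2 fold change was 0.84 over the members and 0.40 over all genes in *Atm-/-* against WT. It was 0.91 and 0.54 in *Sirt6-/-* against WT, and 0.64 and 0.49 between both knockouts. Since the members were chosen with earlier results of these data known, the larger medians cannot show that NAD genes moved more than others. Both comparisons with WT used the same 3 WT samples, so the members' values in them are not independent.

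**Figure D1:**
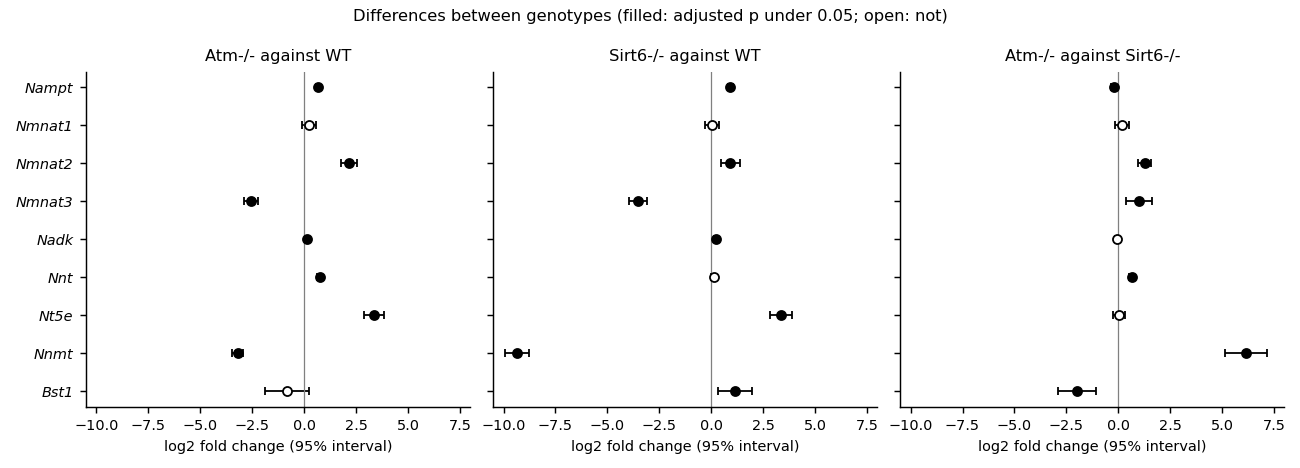
Log2 fold changes of the 9 tested NAD genes in each comparison (points, with 95% intervals as bars; filled points have an adjusted p under 0.05). *Nt5e* and *Nmnat2* lie right of 0 and *Nmnat3* and *Nnmt* left of 0 in both comparisons with WT, and *Bst1* is called higher in *Sirt6-/-* and not called in *Atm-/-*.

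Against WT, *Nampt*, *Nt5e*, *Nmnat2* and *Nadk* rose and *Nmnat3* and *Nnmt* fell in both knockouts. Promoter windows are shown for 4 of these, *Nampt*, *Nt5e* and *Nmnat2* among those that rose and *Nmnat3* among those that fell. Genes moving in the same and in opposite directions can thus be set side by side. Windows of *Nadk* are not printed, and their matches are given after the sequences. All windows come from RefSeq on GRCm38.p6 and run from 250 bases before to 50 bases after an annotated start site. They are printed 5′ to 3′ along the gene. Capitals mark the GC box GGGCGG on either strand, which is the site that Sp family factors are known to bind. Windows were found for 7 of the 10 members, with none for *Nnt*, *Nnmt* or *Bst1*.
Nampt, chr12:32820085-32820384, plus strand: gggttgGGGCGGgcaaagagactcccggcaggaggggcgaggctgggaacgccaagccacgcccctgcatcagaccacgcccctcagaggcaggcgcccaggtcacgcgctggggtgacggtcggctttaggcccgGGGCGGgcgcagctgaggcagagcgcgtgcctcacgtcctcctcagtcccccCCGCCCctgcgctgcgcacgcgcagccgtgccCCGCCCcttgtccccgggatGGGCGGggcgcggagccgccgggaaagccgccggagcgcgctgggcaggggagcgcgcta
Nt5e, chr9:88327359-88327658, plus strand: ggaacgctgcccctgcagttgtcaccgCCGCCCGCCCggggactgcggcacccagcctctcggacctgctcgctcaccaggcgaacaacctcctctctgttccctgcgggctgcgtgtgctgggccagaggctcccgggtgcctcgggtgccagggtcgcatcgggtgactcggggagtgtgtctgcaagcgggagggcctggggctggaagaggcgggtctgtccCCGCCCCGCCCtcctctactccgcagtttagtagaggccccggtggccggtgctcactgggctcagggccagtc
Nmnat2, chr1:152954851-152955150, plus strand: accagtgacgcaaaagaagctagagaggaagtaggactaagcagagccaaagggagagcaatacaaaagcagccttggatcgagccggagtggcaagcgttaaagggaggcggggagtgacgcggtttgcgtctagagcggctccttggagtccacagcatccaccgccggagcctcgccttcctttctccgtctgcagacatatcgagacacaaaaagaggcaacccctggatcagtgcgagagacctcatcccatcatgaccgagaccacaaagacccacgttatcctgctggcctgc
Nmnat3, chr9:98296320-98296619, plus strand: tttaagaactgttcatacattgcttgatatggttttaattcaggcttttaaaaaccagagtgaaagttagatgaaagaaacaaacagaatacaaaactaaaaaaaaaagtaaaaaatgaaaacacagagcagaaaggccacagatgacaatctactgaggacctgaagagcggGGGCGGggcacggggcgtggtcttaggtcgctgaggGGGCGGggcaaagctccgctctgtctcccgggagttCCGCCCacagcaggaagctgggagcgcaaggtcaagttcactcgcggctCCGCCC

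The 4 windows differed in base composition. That of *Nampt* was 76.3% G or C with 36 CpG dinucleotides and 5 GGGCGG matches. That of *Nt5e* was 71% G or C with 23 CpG and 4 matches, which form 2 overlapping pairs. The *Nmnat3* window had 49% G or C, 13 CpG and 4 matches, and the *Nmnat2* window 56.3%, 17 CpG and 0 matches. Over 32851 promoter windows of the same length the medians were 7 CpG and 52.7% G or C, and 35.7% held at least 1 GGGCGG on either strand. The E-box CACGTG, found in 7.15% of all windows, had no match in these 4. The hypoxia factor core was searched as ACGTG, present in 19.6% of all windows, and as GCGTG, present in 32.4%. *Nampt* had 1 match to ACGTG and 5 to GCGTG, *Nmnat2* 1 and 0, and *Nt5e* and *Nmnat3* 0 and 1 each. *Nadk*, which also rose, has windows on chromosome 4 that are not printed. That at 155563565 to 155563864 held 1 E-box, 1 GGGCGG, 3 ACGTG and 3 GCGTG matches. That at 155562131 to 155562430 held 0 of each. Among the 4 printed windows, GC boxes were thus present in that of the gene that fell and absent from that of 1 gene that rose. The windows are not like regions, since those of *Nampt* and *Nt5e* cover the start of the RefSeq gene span. Those of *Nmnat2* and *Nmnat3* begin at 152954851 and 98296320, inside spans that start at 152954781 and 98287433. No conclusion is drawn from this contrast. A match describes letters only, and no match says only that these letters are not in this window. The *Cd38* window had a single CpG, and 5.43% of all windows had fewer.

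*Nampt* encodes the rate-limiting enzyme of nicotinamide salvage (chromosome 12 from 32820335 to 32853369 of GRCm38.p6, plus strand). It had 2507, 2371 and 2332 reads in the WT samples, 4462, 4175 and 3975 in *Atm-/-* and 4574, 4370 and 5136 in *Sirt6-/-*. Every knockout sample lay above every WT sample. Normalized levels were 76.1 ± 2.32 CPM in WT, 122 ± 6.08 in *Atm-/-* and 143 ± 9.81 in *Sirt6-/-* (mean ± SD, n = 3 each, as for all levels below). The log2 fold change against WT was 0.67 in *Atm-/-* (standard error 0.05, adjusted p = 5e-08) and 0.91 in *Sirt6-/-* (standard error 0.06, adjusted p = 1.73e-09). *Atm-/-* was lower than *Sirt6-/-* by a smaller step, a log2 fold change of -0.23 (adjusted p = 0.000548).

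The Nmnat isozymes work in different places: Nmnat1 in the nucleus, Nmnat2 in the cytosol and Golgi, where it is best known for maintaining axons, and Nmnat3 in mitochondria. They moved in different directions. *Nmnat3* (chromosome 9 from 98287433 to 98420533, plus strand) had 425, 363 and 403 reads in WT, 61, 84 and 79 in *Atm-/-*, and 24, 39 and 44 in *Sirt6-/-*. The 3 groups did not overlap. Its level was 12.6 ± 0.882 CPM in WT, 2.16 ± 0.351 in *Atm-/-* and 1.09 ± 0.309 in *Sirt6-/-*. It fell in both, with a log2 fold change of -2.54 in *Atm-/-* (standard error 0.16, adjusted p = 2.58e-09) and -3.52 in *Sirt6-/-* (standard error 0.19, adjusted p = 4.31e-10). *Atm-/-* kept the higher level of the knockouts, by a 1.99-fold difference (log2 95% interval 0.37 to 1.63, adjusted p = 0.00558).

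*Nmnat2* (chromosome 1 from 152954781 to 153119266, plus strand) went the other way. It had 66, 87 and 66 reads in WT, 336, 441 and 303 in *Atm-/-*, and 155, 118 and 155 in *Sirt6-/-*. Each group lay apart from the others, *Atm-/-* highest and WT lowest. Levels were 2.32 ± 0.404 CPM in WT, 10.4 ± 1.92 in *Atm-/-* and 4.35 ± 0.612 in *Sirt6-/-*. The log2 fold change was 2.16 in *Atm-/-* (standard error 0.18, adjusted p = 9.16e-08), 0.91 in *Sirt6-/-* (adjusted p = 0.00139) and 1.26 between *Atm-/-* and *Sirt6-/-* (adjusted p = 3.6e-07). The sum of 5 neural markers was 4.28 to 4.58 CPM in WT, 105 to 117 in *Atm-/-* and 78.4 to 86 in *Sirt6-/-*, in the knockouts mostly from *Map2*, which had 1.93 ± 0.175, 82.3 ± 5.62 and 52.3 ± 4.15 CPM in the same order. The markers differed in pattern: *Tubb3* was highest in *Sirt6-/-*, with 29.3 ± 0.581 CPM there, 10.5 ± 2.25 in *Atm-/-* and 1.87 ± 0.109 in WT. Of the defining neural markers, *Elavl3* had at most 8 reads in any sample and *Gfap* at most 8. *Sox2* had 546 to 783 reads in *Atm-/-*, against 6 to 16 in WT and 0 to 6 in *Sirt6-/-*. The part of these markers' cells in the *Nmnat2* values was not tested.

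*Nmnat1* (chromosome 4 from 149467569 to 149485210, minus strand) changed least of the isozymes. It had 153, 157 and 134 reads in WT, 168, 205 and 196 in *Atm-/-*, and 143, 154 and 176 in *Sirt6-/-*. Every *Atm-/-* sample had more reads than every WT sample, but in normalized CPM the lowest *Atm-/-* sample (4.85) fell below the highest WT sample (5.02), and the *Sirt6-/-* samples overlapped both groups. No difference passed the test, with a log2 fold change of 0.22 in *Atm-/-* (95% interval -0.12 to 0.56, adjusted p = 0.234) and 0.04 in *Sirt6-/-* (interval -0.32 to 0.39, adjusted p = 0.848). With library totals in place of TMM factors the *Atm-/-* difference was 0.39 and passed (adjusted p = 0.0427). *Nmnat1* transcripts also share stretches of at least 150 bases at 95% identity or more with transcripts of other genes, so its counts are uncertain to that extent.

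Per listed length, the mix of isozymes differed between genotypes. *Nmnat3* made up 52.9%, 47.8% and 54.6% of the summed Nmnat RPKM in the WT samples, 10.1%, 11.1% and 11.8% in *Atm-/-* and 5.69%, 8.78% and 8.52% in *Sirt6-/-*. *Nmnat1* accounted for 43.7 ± 2.89% in WT, 63.6 ± 2.68% in *Atm-/-* and 77.5 ± 0.889% in *Sirt6-/-*, and *Nmnat2* for 4.56 ± 0.809%, 25.4 ± 3.25% and 14.8 ± 2.44%. The isozyme with the most RNA per length was thus *Nmnat3* in each WT sample and *Nmnat1* in each knockout sample. In WT replicate 2 they were close, with 47.8% for *Nmnat3* and 46.8% for *Nmnat1*, and the *Nmnat1* counts are uncertain as said above. The summed level was 10.6 ± 0.351 RPKM in WT, 9.51 ± 1.03 in *Atm-/-*, where 1 sample lay within the WT range, and 6.52 ± 0.564 in *Sirt6-/-*, below every WT sample. These shares restate the counts above and were given no test of their own.

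**Figure D2:**
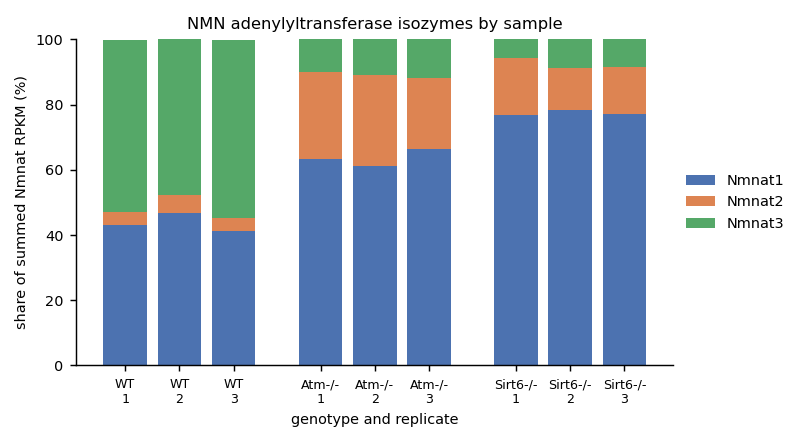
Share of each Nmnat isozyme in the summed Nmnat RPKM of each sample (stacked bars, in percent, 3 samples per genotype). *Nmnat3* takes 47.8% to 54.6% in WT, 10.1% to 11.8% in *Atm-/-* and 5.69% to 8.78% in *Sirt6-/-*.

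*Nadk*, the cytosolic NAD kinase (chromosome 4 from 155562381 to 155591001, plus strand), had 5361, 5376 and 5116 reads in WT, 6274, 6458 and 6477 in *Atm-/-*, and 6462, 6366 and 6457 in *Sirt6-/-*. Levels were 167 ± 4.76, 186 ± 5.27 and 196 ± 2.34 CPM, and neither knockout overlapped WT. The rise was small, a log2 fold change of 0.14 in *Atm-/-* (standard error 0.05, adjusted p = 0.0134) and 0.23 in *Sirt6-/-* (standard error 0.05, adjusted p = 0.000286). The call in *Atm-/-* depended on single samples: it was lost without WT replicate 3 (0.12, adjusted p = 0.0572) and without *Atm-/-* replicate 3 (0.13, adjusted p = 0.0555). In normalized CPM each *Sirt6-/-* sample (194 to 198) lay above each *Atm-/-* sample (181 to 191), but this difference missed the threshold (log2 fold change -0.07, adjusted p = 0.1).

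*Nnt*, the mitochondrial transhydrogenase (chromosome 13 from 119335527 to 119409257, minus strand), had 3090, 2992 and 3251 reads in WT, 5859, 6022 and 5348 in *Atm-/-*, and 3594, 3270 and 3664 in *Sirt6-/-*. The *Atm-/-* samples stood far above both other groups, and in normalized CPM the lowest *Sirt6-/-* sample (101) fell below the highest WT sample (103). Levels were 98.6 ± 4.05 CPM in WT, 166 ± 7.36 in *Atm-/-* and 107 ± 5.22 in *Sirt6-/-*. *Nnt* rose in *Atm-/-*, with a log2 fold change of 0.75 against WT (standard error 0.05, adjusted p = 8.56e-09) and 0.64 against *Sirt6-/-* (standard error 0.05, adjusted p = 1.42e-10). In *Sirt6-/-* the value of 0.12 missed the threshold (adjusted p = 0.0562) and lay close to it: 5 of 15 alternative settings, given in the closing section, passed. Some C57BL/6 substrains carry a deletion of several exons in *Nnt*. The labels name no substrain and counts per gene do not show exons, so the part of this allele was not tested.

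*Nt5e*, the ecto-nucleotidase (chromosome 9 from 88327609 to 88372089, plus strand), rose most of the 10 genes in both knockouts. It had 38, 30 and 18 reads in WT, 322, 290 and 363 in *Atm-/-*, and 252, 370 and 289 in *Sirt6-/-*. All knockout samples were above all WT samples, and the knockouts overlapped each other. Levels were 0.907 ± 0.313 CPM in WT, 9.43 ± 1.23 in *Atm-/-* and 9.28 ± 1.92 in *Sirt6-/-*. This was a 10.3-fold rise in *Atm-/-* (3.36 on the log2 scale, standard error 0.23, adjusted p = 6.97e-09) and a 10.2-fold rise in *Sirt6-/-* (3.35, standard error 0.25, adjusted p = 1.24e-08). Between *Atm-/-* and *Sirt6-/-* the log2 fold change was 0.03, with a 95% interval of -0.27 to 0.33 (adjusted p = 0.858).

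*Nnmt*, nicotinamide N-methyltransferase (chromosome 9 from 48538002 to 48607655, minus strand), fell most. It had 994, 770 and 993 reads in WT, 113, 106 and 110 in *Atm-/-*, and 0, 2 and 2 in *Sirt6-/-*. No groups overlapped, and the *Sirt6-/-* samples were all under the 3 reads taken as the floor of detection. Levels were 29.1 ± 3.89 CPM in WT and 3.18 ± 0.132 in *Atm-/-*, a log2 fold change of -3.20 (standard error 0.13, adjusted p = 1.88e-11). In *Sirt6-/-* it was also lower (adjusted p = 3.1e-13), but the fitted size rests on 4 reads in all. Pooled over samples, WT held 672 times as many *Nnmt* reads per read sequenced as *Sirt6-/-* (95% interval 262 to 2468), and *Atm-/-* 81.7 times as many (31.6 to 302). These intervals cover counting error only. *Nampt* and *Nnmt* compete for nicotinamide, and in RPKM the *Nampt* level was 0.556 ± 0.08 of the *Nnmt* level in WT and 8.04 ± 0.398 of it in *Atm-/-*. In *Sirt6-/-* the ratio was 458 and 539 in the samples with *Nnmt* reads, and 1 sample had none.

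*Cd38* and *Bst1* encode related NAD glycohydrolases of the cell surface, best known on immune cells, and lie next to each other on chromosome 5 (43868809 to 43912374 and 43818880 to 43843468, both plus strand). *Cd38* had 7, 5 and 5 reads in WT, 1, 2 and 0 in *Atm-/-*, and 5, 13 and 21 in *Sirt6-/-*. All *Atm-/-* samples were below all others, and at this depth none of its differences was tested. *Bst1* had 25, 13 and 26 reads in WT, 20, 6 and 13 in *Atm-/-*, and 39, 42 and 68 in *Sirt6-/-*. Only the *Sirt6-/-* samples stood apart, above all others. Levels of *Bst1* were 0.675 ± 0.226 CPM in WT, 0.377 ± 0.203 in *Atm-/-* and 1.51 ± 0.46 in *Sirt6-/-*. It rose in *Sirt6-/-* by a log2 fold change of 1.16 (standard error 0.38, adjusted p = 0.0121), a call lost without *Sirt6-/-* replicate 3 (0.88, adjusted p = 0.0851). The value in *Atm-/-* was -0.84 (95% interval -1.90 to 0.21, adjusted p = 0.144), and *Atm-/-* lay below *Sirt6-/-* by a log2 fold change of -1.99 (adjusted p = 0.000286). *Bst1* shares 98 exonic bases with *Fbxl5* on the opposite strand, which had up to 2028 reads, and the sources used here do not state whether strand was used in counting, so some *Bst1* reads may be from *Fbxl5*. *Bst1* also shares stretches of 154 and 161 bases with *Gnl3l* and *Slc35e2*, at 95.5% and 95% identity, which adds to the uncertainty of its few reads. Haematopoietic markers summed to 15.4 to 16.2 CPM in WT, 7.12 to 7.79 in *Atm-/-* and 7.39 to 9.02 in *Sirt6-/-*, and the part of such cells in the *Bst1* and *Cd38* values was not tested.

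**Figure D3:**
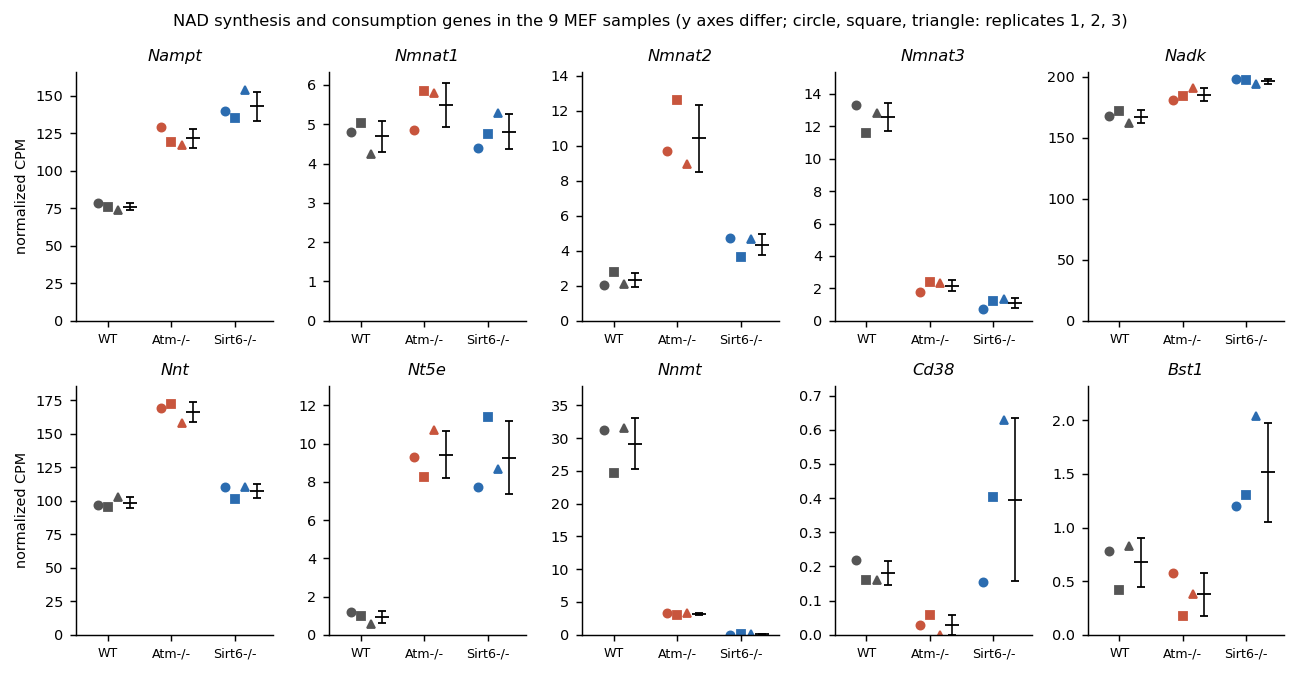
Normalized CPM of the 10 NAD genes in the 9 samples (points, coloured by genotype, shape by replicate; bars are mean ± SD, n = 3; each panel has its own y axis from 0). *Nt5e*, *Nmnat2* and *Nampt* are higher and *Nmnat3* and *Nnmt* lower in every knockout sample than in any WT sample.

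Compared per listed length, *Nadk* had the highest RPKM of the 10 genes in every group, with 52 ± 1.36 RPKM in WT, 64.1 ± 1.73 in *Atm-/-* and 64.7 ± 1.14 in *Sirt6-/-*. In WT the next were *Nnmt* with 28.8 ± 3.88 and *Nnt* with 26.4 ± 1.15 RPKM, whose samples overlapped, and then *Nampt* with 15.8 ± 0.452. *Nmnat3* (5.49 ± 0.388) and *Nmnat1* (4.63 ± 0.379) followed, then *Nmnat2* (0.483 ± 0.0835). The lowest were *Bst1* (0.273 ± 0.0914) and *Nt5e* (0.239 ± 0.0821), which overlapped, and *Cd38* (0.0565 ± 0.0109). The order was different in the knockouts, chiefly for the genes at either end of the change. In *Atm-/-*, *Nnt* (49.5 ± 2.26) and *Nampt* (28.1 ± 1.43 RPKM) came after *Nadk*, *Nmnat1* had 6.05 ± 0.615, *Nnmt* 3.5 ± 0.144, and *Nt5e* (2.76 ± 0.356) and *Nmnat2* (2.42 ± 0.448) overlapped above *Nmnat3* (1.05 ± 0.17). In *Sirt6-/-*, *Nampt* (31.5 ± 2.02) and *Nnt* (30.4 ± 1.49) overlapped below *Nadk*, and *Nt5e* reached 2.6 ± 0.537 RPKM. In the same samples *Nmnat2* (0.964 ± 0.136) overlapped *Bst1* (0.647 ± 0.193), which overlapped *Nmnat3* (0.504 ± 0.141), and *Cd38* and *Nnmt* were lowest and overlapped. RPKM values are not corrected for the make-up of a library, so the order within a group is firmer than a difference between groups.

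**Figure D4:**
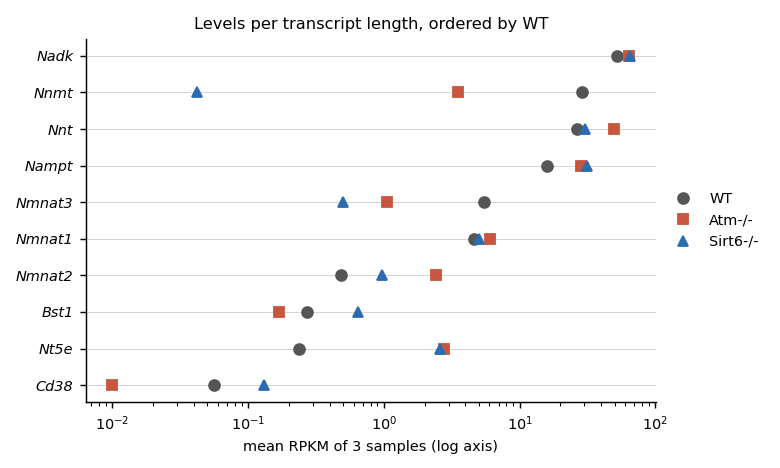
Mean RPKM (3 samples per genotype, log axis) of the 10 NAD genes, listed from the highest to the lowest in WT. *Nnmt* moves from 28.8 RPKM in WT to 3.5 in *Atm-/-* and 0.0425 in *Sirt6-/-*, while *Nadk* stays the highest in each genotype.

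The genes closest to each member over the 9 samples, by Pearson's r of log2(normalized CPM + 0.5) among 13756 other tested genes, are given as a description. The 9 points are 3 groups of 3, so a high r mostly says that the group levels fall in the same pattern. For *Nnmt* these were *Rasgrf2* and *Mbnl3* (r = 0.999 for each), and 6.32% of genes reached at least 0.95. *Nmnat3* was closest to *Olfml3* (0.997) and *Sv2a* (0.996), *Nampt* to *Ift74* (0.996) and *Mapk7* (0.994), and *Nmnat2* to *Tmem63b* (0.996) and *Mars* (0.991). *Nt5e* was closest to *Frg1* (0.994) and *Rrad* (0.993), *Nnt* to *Mrpl37* (0.994) and *Galnt13* (0.993), and *Nadk* to *Arhgap8* (0.985) and *Oscp1* (0.985). Many genes came as close, with 4.88% reaching 0.95 for *Nmnat3*, 3.99% for *Nampt* and 1.56% for *Nmnat2*. The shares were 3.33% for *Nt5e*, 3.23% for *Nnt* and 1.62% for *Nadk*. Some named genes had few reads, such as *Arhgap8*, with a mean of at most 0.692 CPM in any group, and *Galnt13*, with 0.0425 CPM in WT. *Bst1* and *Nmnat1* had fewer close genes, with 7 and 0 reaching 0.95: the nearest to *Bst1* were *Ubl7* (0.974) and *Gm10814* (0.964), and to *Nmnat1* were *Kmt2d* (0.932) and *Rpl7a* (0.927).

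The rest of NAD metabolism was described with 67 further genes in 9 lists, set by role with earlier results of these data known. In *Atm-/-* against WT, 51 were tested, of which 19 were higher, 16 lower and 16 not called, and their median log2 fold change was -0.01, against 0.015 over all genes. Over all tested genes 34.7% were higher and 33.6% lower. Scaling by library totals left 10 of the 51 lower. In *Sirt6-/-*, 50 were tested, with 25 higher, 15 lower and 10 not called, where 39.2% of all genes were higher and 37.4% lower, and a median of 0.23 against 0.024. Between *Atm-/-* and *Sirt6-/-*, 15 were higher in *Atm-/-*, 22 lower and 14 not called, where 38.0% of all genes were higher and 37.8% lower. *Sirt6* itself is among the 15 lower in *Sirt6-/-* against WT and the 15 higher in *Atm-/-* against *Sirt6-/-*, as its genotype sets. The counts of each list below stand against these same shares, and with lists this small nothing is read from them about a list as a whole. Genes named below changed at least 2-fold with an adjusted p under 0.05 and no overlap between groups, unless said otherwise.

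Other entries to NAD were uneven. Of 5 genes of other salvage routes, 4 were tested, with 1 higher and 1 lower in *Atm-/-* and 3 higher and 0 lower in *Sirt6-/-*. *Naprt*, which starts NAD synthesis from nicotinic acid, rose from 0.328 ± 0.0828 CPM in WT to 1.55 ± 0.545 in *Atm-/-* (log2 fold change 2.22, adjusted p = 0.000273 by edgeR) and 0.805 ± 0.275 in *Sirt6-/-* (1.29, adjusted p = 0.0176), from 8 to 13 reads per WT sample. Its value is uncertain, because *Naprt* shares 277 bases with *Eef1d* at 100% identity. *Nmrk1*, the nicotinamide riboside kinase that takes up the product Nt5e can make from NMN, rose in *Sirt6-/-*, from 3.76 ± 0.572 to 8.15 ± 1.17 CPM (log2 fold change 1.12, adjusted p = 3.59e-05), and was lower in *Atm-/-* than in *Sirt6-/-* by -1.19 (adjusted p = 8e-07). The pathway from tryptophan was nearly silent. Of its 9 genes only *Afmid* was tested, without a call against WT, and *Kynu*, *Kmo* and *Qprt*, enzymes of its middle and last steps, had no reads in any sample and are named after their counts were seen.

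Among genes of NADP supply in mitochondria and of the repair of damaged cofactor, *Nadk2*, the mitochondrial NAD kinase, rose from 30.4 ± 3.65 CPM in WT to 62.3 ± 4.17 in *Atm-/-* (log2 fold change 1.03, adjusted p = 6.72e-08) and 105 ± 4.37 in *Sirt6-/-* (adjusted p = 2.56e-11). Both other genes of that list of 3 changed less than 2-fold against WT, and all 3 were lower in *Atm-/-* than in *Sirt6-/-*. Of 5 genes that clear, repair or dephosphorylate NAD(P)H, 3 were higher and 1 lower in *Atm-/-*, and 4 higher and 1 lower in *Sirt6-/-*. *Hddc3*, an NADPH phosphatase, had log2 fold changes of 3.32 and 3.70 from 7 to 14 reads per WT sample, and is uncertain because its transcripts share long stretches with other transcripts. *Apoa1bp*, the epimerase of damaged NAD(P)H also called Naxe, was lower in *Atm-/-* than in *Sirt6-/-* by a log2 fold change of -1.23 (adjusted p = 6.75e-13).

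Of the enzymes that spend NAD inside the cell, all 16 genes of the PARP and tankyrase family were tested, with 7 higher and 6 lower in *Atm-/-*, against 34.7% and 33.6% of all genes, and 11 higher and 3 lower in *Sirt6-/-*, against 39.2% and 37.4%. *Parp8*, *Parp12* and *Parp16*, which are thought to add single ADP-ribose units, rose in both. *Parp8* had 17.2 ± 0.636 CPM in WT, 48.2 ± 1.08 in *Atm-/-* (log2 fold change 1.48, adjusted p = 1.5e-10) and 57.5 ± 0.875 in *Sirt6-/-* (1.74, adjusted p = 7.16e-12). *Parp16* rose by 1.62 and 2.06, and *Parp12* by 1.14 and 1.03. *Parp14* rose by 1.79 in *Sirt6-/-* and lay lower in *Atm-/-* than there (-1.12), as did *Parp3*, a PARP of DNA break repair (-1.15). *Parp1*, the main DNA damage PARP, is added after its values were seen: it had 250 ± 2.17 CPM in WT, 216 ± 6.22 in *Atm-/-* (log2 fold change -0.22, adjusted p = 0.000338) and 151 ± 3.71 in *Sirt6-/-* (-0.73, adjusted p = 1.11e-09). *Sarm1*, a glycohydrolase that destroys NAD in injured axons, was not called in any comparison. Of the 7 sirtuins, *Sirt1*, a nuclear NAD-dependent deacetylase, rose in *Atm-/-* by 1.40 (adjusted p = 2.11e-09) and in *Sirt6-/-* by 1.10 (adjusted p = 3.24e-08). The list had 2 higher and 1 lower in *Atm-/-* and 2 higher and 2 lower in *Sirt6-/-*, where *Sirt6* itself is 1 of the falls (-6.43).

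A further list held ecto-ADP-ribosyltransferases and ectonucleotidases together with nucleotide enzymes and carriers that are not on the cell surface or not enzymes. Of its 13 genes, 7 were tested in *Atm-/-*, with 3 higher and 2 lower, and 6 in *Sirt6-/-*, with 2 higher and 4 lower. *Enpp1*, which can cut NAD to NMN and AMP and so makes the substrates of Nt5e, rose in both, from 1.09 ± 0.195 CPM in WT to 13.1 ± 1.49 in *Atm-/-* (log2 fold change 3.57, adjusted p = 2.21e-10) and 9.17 ± 0.397 in *Sirt6-/-* (3.07, adjusted p = 1.42e-09). *Enpp3*, a related enzyme, fell by 1.49 on the log2 scale in *Atm-/-* (adjusted p = 0.00299) and by 2.30 in *Sirt6-/-* (adjusted p = 0.000136). *Slc12a8*, a carrier for which NMN transport has been proposed and disputed, fell from 9.96 ± 0.848 CPM in WT to 0.61 ± 0.184 in *Atm-/-* (log2 fold change -4.03, adjusted p = 5.44e-10) and 1.2 ± 0.426 in *Sirt6-/-* (-3.05, adjusted p = 9.64e-09). *Ada*, which deaminates the adenosine that Nt5e releases from AMP, rose in *Sirt6-/-* (1.01, adjusted p = 2.45e-07). *Entpd1*, which supplies AMP from ATP and ADP, had 15 to 25 reads in *Atm-/-* and 0 or 1 in *Sirt6-/-*, and was higher in *Atm-/-* than there (adjusted p = 2.06e-05).

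A list set around the Nnmt reaction and its methyl donor held 8 genes, not all of which supply the donor. Of these, 7 were tested, with 2 higher and 4 lower in *Atm-/-* (median log2 fold change -0.81, against 0.015 over all genes) and 1 higher and 5 lower in *Sirt6-/-* (median -1.11, against 0.024). Leaving out *Ahcy* was an alternative chosen after seeing the data because its counts are uncertain. It gave 2 higher and 3 lower of 6 in *Atm-/-* (median -0.44) and 1 higher and 4 lower in *Sirt6-/-* (median -0.72). *Aox1*, *Pemt* and *Gnmt* are on the list but do not supply the donor, and *Aox1* was called higher in both. *Mat2a*, of the enzyme that makes the donor, is added after its values were seen. Its log2 fold change was 0.33 in *Atm-/-* (adjusted p = 2.54e-05 by edgeR) and -0.33 in *Sirt6-/-* (adjusted p = 6.87e-05). *Adk*, which clears the adenosine made after methyl transfer, fell from 205 ± 10.6 CPM in WT to 97.4 ± 1.55 in *Atm-/-* (log2 fold change -1.08, adjusted p = 9.29e-11) and 83.3 ± 6.76 in *Sirt6-/-* (-1.30, adjusted p = 6.98e-11). *Ahcyl1*, a relative of the enzyme that clears S-adenosylhomocysteine, fell by 1.02 and 1.11, and *Pemt*, a methyltransferase of phosphatidylcholine synthesis, by 1.17 in *Sirt6-/-*. *Ahcy*, that enzyme itself, was lower by -4.74 in *Atm-/-* and -5.49 in *Sirt6-/-*, but its counts are uncertain, because *Gm4737* is 99.7% identical to it over 2083 bases. Summed over both genes the level was 393 ± 15 CPM in WT, 424 ± 6.62 in *Atm-/-* and 267 ± 8.05 in *Sirt6-/-*, so that the direction in *Atm-/-* is not the same for the sum. Transcripts of *Adk*, *Enpp3*, *Nmrk1* and *Slc12a8* share stretches of 150 to 206 bases at 95% to 96.8% identity with other transcripts, and their counts are uncertain to that extent.

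**Figure D5:**
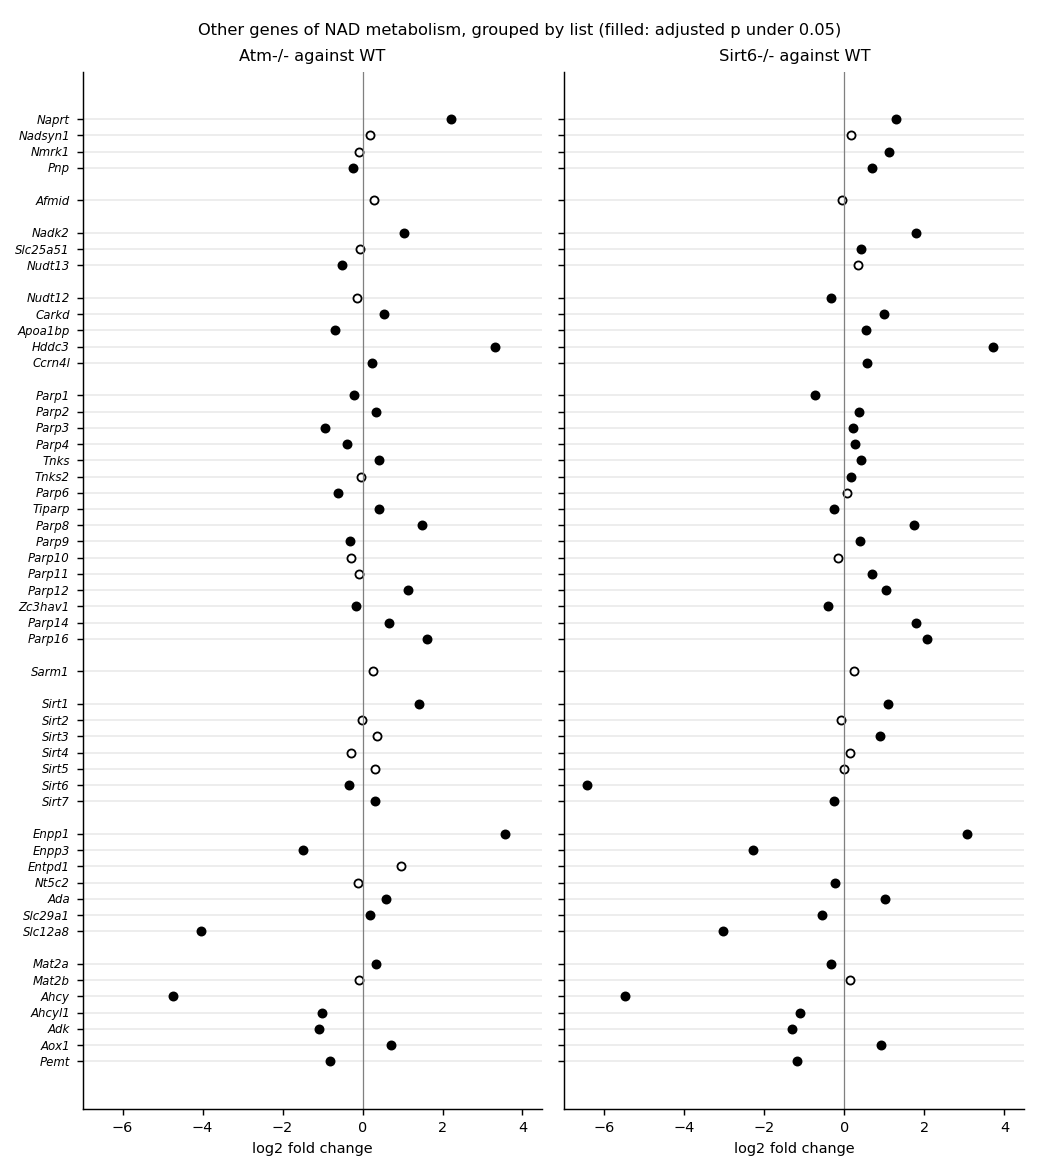
Log2 fold changes of the other genes of NAD metabolism tested in at least 1 comparison with WT, grouped by list in the order of the text (filled points have an adjusted p under 0.05). *Entpd1* was tested in *Atm-/-* and not in *Sirt6-/-*, and has a point only in the *Atm-/-* panel. *Hddc3*, *Enpp1* and *Naprt* lie to the right and *Ahcy*, *Slc12a8* and *Enpp3* to the left in both panels, with *Sirt6* far to the left in *Sirt6-/-*.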

How the data were processed

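RNA-Seq was carried out on 9 MEF samples, 3 each of WT, *Atm-/-* and *Sirt6-/-*, from mRNA selected with oligo(dT) beads. For each sample the authors deposited a read count per gene, whole numbers without normalization, and RPKM, which the authors made from the counts by dividing by a listed transcript length and the sample's read total. The genome build is mm10 per the submitters' processing notes; the aligner and counter are not given in the sources used here.

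Each pair of genotypes was fitted with edgeR 4.0.16 in R 4.3.3 (filterByExpr and TMM, then glmQLFit and glmQLFTest, prior count 0.125), and a gene was called at a Benjamini-Hochberg adjusted p under 0.05 over all tested genes. Standard errors came from the F statistic. Normalized CPM, on which overlap between groups was judged, used TMM factors over all 9 samples. The procedure was tested on simulated counts before use. The deposited counts total 32187040 to 33837949 per sample. Samples of a genotype differed by more than counting noise, with a chi-square of 5.24 to 16.4 per gene, and none were duplicates. The highest values, 16.4 and 15.1, were those of WT replicate 2 with WT replicates 1 and 3, and all other pairs reached at most 6.88. WT replicate 2 enters both comparisons with WT.

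The 10 genes and the 67 further genes were chosen with earlier results of these data known. The genes named are the 10; *Atm*, *Sirt6* and *Trp53*; further listed genes with an adjusted p under 0.05, a change of at least 2-fold and no overlap between groups; and, for each member with a mean of at least 1 CPM in a genotype, the 2 genes closest in pattern. Positions and promoters are from RefSeq GRCm38.p6, the same assembly series as mm10, and all 10 genes were matched by symbol. GENCODE transcripts of GRCm38 were compared with blastn 2.17.0 for stretches of at least 150 bases at 95% identity. The alternatives were DESeq2 size factors, library totals, a stricter and no filter, all 9 samples in 1 fit, a replicate block, omission of each sample, the DESeq2 1.42.0 Wald test, edgeR's exact test and, for fold changes, a prior count of 2. No label names a batch or a sequencing date.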

Additional observations from a re-analysis of the deposited data

How the results depend on the processing

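Among recomputed log2 fold changes of the 9 tested members, 387 kept their direction and their side of the threshold while 5 changed sign, 6 newly passed it and 3 no longer did. Of the recomputed counts of calls, 207 stayed within 1.5 times and 3 moved further. Over all genes, calls in *Atm-/-* against WT ranged from 7975 to 9482 (9080 as reported), in *Sirt6-/-* from 8849 to 10559 (10114) and between the knockouts from 9141 to 10690 (10205). Library totals in place of TMM moved the median log2 fold change of all genes from 0.015 to 0.179 in *Atm-/-* and from 0.024 to 0.114 in *Sirt6-/-*, and the higher share of calls from 50.8% to 64.9% and from 51.2% to 57.3%. They also took the lower genes of the wider lists in *Atm-/-* from 16 to 10. At least 10 counts in every sample left 1 lower member in place of 2 in *Sirt6-/-* and in *Atm-/-* against *Sirt6-/-*, since members with few reads were no longer tested. *Nnt* in *Sirt6-/-* passed with library totals (0.21, adjusted p = 0.00296), with that filter (0.14, adjusted p = 0.0337), with all 9 samples in 1 fit (0.12, adjusted p = 0.0463), without WT replicate 3 (0.14, adjusted p = 0.0448) and without *Sirt6-/-* replicate 2 (0.16, adjusted p = 0.0272); the cause was not tested. With each sample left out, values near 0 changed sign without a call: *Nmnat1* in *Sirt6-/-* ranged from -0.04 to 0.10 (-0.039 and -0.035 without WT or *Sirt6-/-* replicate 3), and *Nt5e* in *Atm-/-* against *Sirt6-/-* from -0.09 to 0.21 (-0.086, -0.070 and -0.015 without *Sirt6-/-* replicate 1, *Atm-/-* replicate 3 or *Sirt6-/-* replicate 3). The replicate numbers did not pair the samples: deviations of same-numbered samples correlated between -0.0151 and 0.0588, and not every sample correlated best with its own number. A replicate block in the fit gave calls of 8833, 10041 and 10157 genes in the 3 comparisons and changed no call on a member. The 3-read floor of 0.0887 to 0.0932 CPM limits *Cd38*, and *Nnmt* in *Sirt6-/-*.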
